A study of Mus musculus with 7 samples.

Results

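Cells that carried transcripts of both Sox2 and Sox18 together with a fibrillar collagen were examined in the embryonic mouse nose, at day 14.5 of gestation. Sox2 and Sox18 encode transcription factors of the SOX family. The cells were chosen by their measured UMIs (unique molecular identifiers, each 1 captured transcript). A cell was taken where it held at least 1 UMI of Sox18, 1 of Sox2 and 1 of Col1a1 or Col3a1, and 0 UMIs of Pecam1, Cdh5, Epcam and Stmn3. The excluded genes mark endothelium (Pecam1, Cdh5), epithelium (Epcam) and neurons (Stmn3). The rule found 200 of 31465 kept cells. They are compared with 5995 other cells of the same libraries that held Twist2, a transcription factor gene of the dermis, and with all 21855 other mesenchymal cells. Since these genes chose the cells, their levels are given as a description and were not tested.

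Cells of whole noses were freed with papain and collagenase A, kept frozen, and after thawing were profiled by droplet single-cell RNA sequencing of the 3′ ends of transcripts. The WT group holds 5 libraries of wild-type CD1 IGS mice. The Prokr2Cre group holds 2 libraries made from the cell suspension of 1 ProKR2iCre/R26tdTomato nose. Its Cre allele is Prokr2em1(cre)Cfe, labelled B6;SJL, and its reporter allele is Gt(ROSA)26Sortm14(CAG-tdTomato)Hze, in which Cre switches on a red protein driven by the CAG promoter. Any cell whose lineage once expressed Prokr2 can be red, so the reporter is not a measure of present Prokr2 expression. That suspension was profiled both before and after cell sorting. The file names call Prokr2Cre replicate 1 unsorted and replicate 2 sorted, while the sample labels do not say which is which. The strains differ between the groups, and age is the same in all libraries. The labels do not tie each WT library to 1 nose, so p-values weigh the difference between compared cells against its spread over these libraries.

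A dermal condensate is the cluster of fibroblasts that gathers beneath the epithelial placode of a hair or whisker follicle and later forms its dermal papilla. Condensate cells are known to stop dividing, to respond to WNT, FGF20 and Sonic hedgehog (SHH) signals from the epithelium, and to send signals back to it. Sox2, Sox18, Prdm1 (the transcription repressor Blimp1) and Foxd1 are among their known markers. Sox18 is also known from endothelium, and Sox2 from sensory and olfactory epithelium, Merkel cells and glia.

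Several libraries stood apart. WT replicate 3 shared 7386 of its 7396 barcodes with WT replicate 4 and was left out. Total depth ran from 16773781 to 89800259 UMIs per library. The matrices of WT replicates 1 and 4 list 31053 genes and those of the other libraries used list more, and Sox18 was read less often with the shorter list. In endothelial cells, which held both Pecam1 and Cdh5, Sox18 stood at 14.3 and 28.4 CPM (UMIs of the gene for every 1000000 UMIs of the class) in WT replicates 1 and 4. The same gate gave 161 and 206 CPM in WT replicates 2 and 5, and 120 and 171 CPM in Prokr2Cre replicates 1 and 2, the last from 2 cells. Sox17, another endothelial SOX gene, showed no such split, at 175 and 82.5 CPM in WT replicates 1 and 4 and 97.7 to 147 CPM elsewhere. The long gene Trps1 was also low in WT replicate 1 and Prokr2Cre replicate 1. It stood at 56.3 and 569 CPM in their Twist2-positive cells against 795 to 1891 CPM in the other libraries. Whether reads in introns were counted is not given in the sources used here. Tests therefore compare cell classes within libraries, and where levels of different libraries are set side by side they are a description.

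WT replicate 1 held 0 of the Sox2 Sox18 cells among its 7790 kept cells, where 3 counts would be 0.0385% and the exact 95% upper limit of a count of 0 is 0.0473%. WT replicate 2 held 16 of 10496 cells (0.152%, exact 95% binomial interval 0.0872 to 0.247), WT replicate 4 held 16 of 7029 (0.228%, 0.130 to 0.369) and WT replicate 5 held 15 of 3250 (0.462%, 0.259 to 0.760). Prokr2Cre replicate 1 held 30 of 1789 (1.68%, 1.13 to 2.39) and Prokr2Cre replicate 2 held 123 of 1111 (11.1%, 9.29 to 13.1). The last library thus gave most of the cells, at 6.60 times the share of the other library from the same suspension (4.40 to 10.2, counting error only). Other Twist2-positive cells went the other way, at 0.532 times their share in Prokr2Cre replicate 1 (0.444 to 0.636), as did all other mesenchyme, at 0.767 times (0.693 to 0.848). With 1 library on each side these ratios have no replicate check. After each kept cell had been thinned to 2000 UMIs, the shares of Sox2 Sox18 cells in Prokr2Cre replicates 1 and 2 were 0.464% and 1.99%, nearer to each other than the unthinned shares. All intervals and floors cover counting error only.

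**Figure D1:**
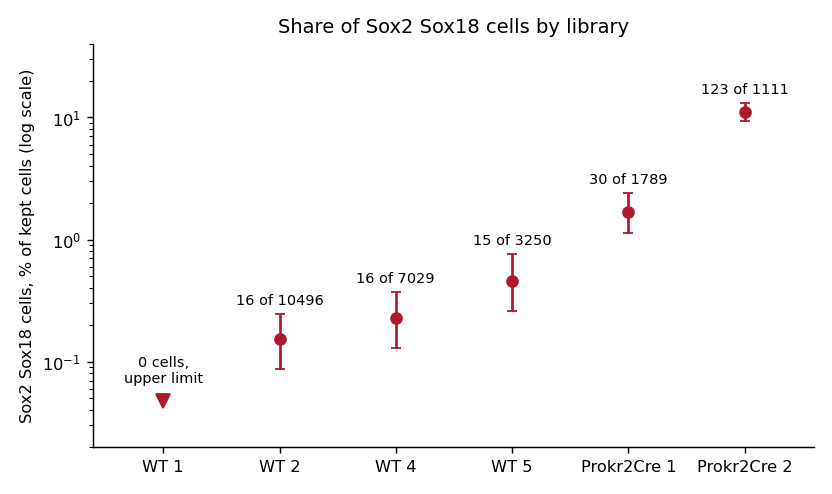
Share of kept cells that were Sox2 Sox18 cells in each library, in percent on a log scale, with exact 95% binomial intervals and the counts printed above the points. WT replicate 1 is drawn at its exact upper limit, and Prokr2Cre replicate 2 lies above all others at 11.1%.

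Without Sox18 in the rule, cells with Sox2 and at least 2 of Foxd1, Inhba, Prdm1 and Klhl14 numbered 4 in WT replicate 1, 17 in WT replicate 2, 18 in WT replicate 4, 15 in WT replicate 5, 30 in Prokr2Cre replicate 1 and 180 in Prokr2Cre replicate 2. Their share in the last library was 16.2% of kept cells. The 4 cells of WT replicate 1 held 1 Sox10 UMI, and Col2a1 of cartilage stood at 1070 CPM in them. The 30 such cells of Prokr2Cre replicate 1 held 16 Sox10 UMIs, with the glial gene Fabp7 at 116 CPM, and 22 of them held Sox18. This second rule was added after the data had been seen.

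The cut at 1 UMI of each gene was close to many cells. Of the Sox2 Sox18 cells, 4 in WT replicate 2, 6 in WT replicate 4, 2 in WT replicate 5, 1 in Prokr2Cre replicate 1 and 3 in Prokr2Cre replicate 2 held exactly 1 UMI of each. Just outside it, cells that met the rest of the rule with Sox2 but no Sox18 numbered 72, 37, 24, 27 and 70 in WT replicates 2, 4 and 5 and Prokr2Cre replicates 1 and 2. Those with Sox18 but no Sox2 numbered 179, 120, 86, 100 and 24, more than the Sox2 Sox18 cells in each library but the last. In Prokr2Cre replicate 2, 15 cells with both genes fell out through 1 UMI of an excluded gene, which was Stmn3 in 12 of them and Pecam1 in 3. The comparison cells of that library were not free of Sox2 either, since 35 of its 164 Twist2-positive cells (21.3%) held a Sox2 UMI, against 0.596% to 2.02% in the other 4 libraries with Sox2 Sox18 cells.

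The genes of the rule stood as follows. Sox18 lies on mouse chromosome 2 at positions 181669836 to 181671640 of GRCm38 (GENCODE vM21) and Sox2 on chromosome 3 at 34650405 to 34652461. Sox18 stood at 314, 212 and 218 CPM in the Sox2 Sox18 cells of WT replicates 2, 4 and 5 and at 430 and 268 CPM in those of Prokr2Cre replicates 1 and 2, against 10.9 to 33.0 CPM in the other Twist2-positive cells. Sox2 stood at 381, 310, 255, 282 and 513 CPM in the same order, against 1.57, 1.35, 0.727, 7.10 and 90.6 CPM. Twist2 was detected in 10 of 16, 9 of 16, 11 of 15, 25 of 30 and 75 of 123 of the cells, so the label as dermal cells does not rest on that gene in every cell. Its level of 224, 292, 234, 379 and 108 CPM lay below that of the Twist2-positive cells, which hold Twist2 by their own definition, in every library but Prokr2Cre replicate 1. Against all other mesenchyme, where it was no part of the rule, Twist2 was higher by 0.92 (log2, SE 0.21, adjusted p = 0.0017), which missed the threshold without the library as a block (adjusted p = 0.22).

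Across all genes, UMIs were summed per library and class, and edgeR's quasi-likelihood test was run with the library as a block. WT replicates 2, 4 and 5 and Prokr2Cre replicate 2 entered. Of 10553 genes tested against the other Twist2-positive cells, 772 (7.32%) passed an adjusted p of 0.05, 283 of them higher in the Sox2 Sox18 cells (2.68%) and 489 lower (4.63%). Against all other mesenchyme, 1110 of 12129 genes passed (9.15%), 381 of them higher (3.14%) and 729 lower (6.01%). Prokr2Cre replicate 1, which was not in the fit but comes from the same suspension as replicate 2, showed the same direction for 246 of the 283 higher and 463 of the 489 lower genes of the first comparison. Without Prokr2Cre replicate 2 the first comparison gave 616 calls, of which 492 were also among the 772, and 771 of the 772 kept their direction. The median log2 change over all genes was -0.05 in this comparison and -0.08 in that with mesenchyme, and over the WT libraries alone -0.18 and -0.21.

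The label was set beside a list of 30 genes known from dermal condensates, which is no independent check, since it was chosen with earlier results of these data known. Of the 27 of them that could be tested, 19 were higher in the Sox2 Sox18 cells than in the other Twist2-positive cells, 0 were lower, and 26 had a positive change. Their median log2 change was 1.79 against -0.05 over all genes. Of all genes tested, 2.68% were higher and 4.63% lower. Sox18 and Sox2 were not tested because the rule used them, and Gal was too low to test. Against mesenchyme 22 of the 27 list genes were higher and 0 were lower, beside 3.14% and 6.01% of all genes. Vcan, however, was called lower there without Prokr2Cre replicate 2 (-0.78, adjusted p = 0.011) or WT replicate 5 (-0.42, adjusted p = 0.043).

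Of the marker genes named with the label, Prdm1 (chromosome 10, 44437177 to 44528501) stood at 78.5, 265 and 58.4 CPM in the Sox2 Sox18 cells of WT replicates 2, 4 and 5 and at 195 CPM in those of Prokr2Cre replicate 2. The other Twist2-positive cells of these libraries held 6.11, 12.3, 3.15 and 36.2 CPM, so the classes differed in the same direction in all 4. The log2 change was 3.44 (SE 0.33, adjusted p = 5.0e-07). Inhba, whose product is the activin A subunit, stood at 258, 150, 276 and 698 CPM against 28.4, 47.6, 78.0 and 199 CPM, a change of 2.00 (SE 0.23, adjusted p = 3.3e-06). Without the library as a block, the adjusted p of Inhba was 0.054. Klhl14, a gene of the Kelch-like family, stood at 78.5, 221, 53.1 and 230 CPM against 4.05, 5.64, 4.36 and 43.3 CPM, a change of 3.59 (SE 0.38, adjusted p = 1.7e-06). In Prokr2Cre replicate 1 Klhl14 reached only 6.35 CPM from 3 UMIs, against 2.95 CPM, while Prdm1 and Inhba stood at 78.4 and 311 CPM there, against 8.44 and 49.3 CPM.

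Of the transcription factor genes of the list, Foxd1, a marker of condensates in hair and whisker skin, stood at 303, 257, 605 and 302 CPM against 61.6, 68.3, 52.9 and 83.9 CPM in the same 4 libraries. Its change was 2.35 (SE 0.25, adjusted p = 1.7e-06), and its groups did not overlap, which held for 8.7% of all genes tested. Tbx18 changed by as much, from 20.2 to 32.7 CPM in the comparison cells to 101 to 157 CPM (2.35, adjusted p = 8.6e-07). Lef1, which carries the WNT signal to its target genes, rose by 1.56, Trps1 by 1.21 and Alx4 by 1.04. Alx4 missed the threshold without Prokr2Cre replicate 2 (0.62, adjusted p = 0.65). Snai1 of the same list was not called.

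Of the genes for secreted signals, Fgf10, a growth factor acting on the epithelium, stood at 56.1, 195, 63.7 and 158 CPM against 15.5, 25.2, 24.6 and 39.8 CPM (2.03, SE 0.27, adjusted p = 2.4e-05). Rspo3, an amplifier of WNT signals, rose by 1.79, the BMP family gene Bmp3 by 2.23 and the BMP antagonist gene Nog by 2.11, although no Nog UMI was seen in the 16 cells of WT replicate 4. Bmp3 missed the threshold without the library as a block (adjusted p = 0.099). Cdkn1a, the cell cycle inhibitor p21, rose by 2.56 (SE 0.40, adjusted p = 0.00014). It varied widely, at 690 CPM in WT replicate 4 and 31.9 CPM in WT replicate 5. Cxcr4, the receptor of the chemokine Cxcl12, rested on few UMIs, 1, 0, 3 and 42 in the 4 libraries, and was called (2.55, adjusted p = 0.022). It missed the threshold without WT replicate 2 (adjusted p = 0.060), WT replicate 5 (0.054) or Prokr2Cre replicate 2 (0.22).

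Of the list genes not called, Dkk1, Bmp4, Bmp7 and Corin were called when 1 library was left out. Dkk1 was also called with Twist2-positive Sox2 Sox18 cells only (1.26, adjusted p = 0.0070), and Corin with high doublet scores removed (1.87, adjusted p = 0.048) or with at least 2 UMIs of Sox18 or Sox2 (2.05, adjusted p = 0.010). Dkk1, a secreted WNT inhibitor, stood at 224, 142 and 122 CPM in the Sox2 Sox18 cells of the WT replicates and 218 CPM in those of Prokr2Cre replicate 1, against 49.6, 82.4, 49.9 and 73.5 CPM. In Prokr2Cre replicate 2 it stood at 26.7 CPM, below the 41.5 CPM of its comparison cells. With all 4 libraries the change was 0.76 (adjusted p = 0.23), and over the WT libraries alone 1.28 (adjusted p = 0.00059). Bmp4 and Bmp7 were called over the WT libraries as well, at 1.17 (adjusted p = 0.00096) and 1.47 (adjusted p = 0.0074), and missed the threshold over all 4, at 0.81 (0.053) and 0.96 (0.065). Corin, a membrane protease of the dermal papilla, stood at 22.4, 61.9, 0 and 16.4 CPM against 5.94, 4.54, 16.3 and 2.65 CPM (1.80, adjusted p = 0.12), and was called without WT replicate 5 (2.81, adjusted p = 0.0014). Vcan, the proteoglycan versican and a known marker of the dermal papilla, went the other way over the WT libraries, at -0.83 (adjusted p = 0.0073), against -0.41 (0.36) over all 4. It stood at 213, 292 and 356 CPM in the Sox2 Sox18 cells of WT replicates 2, 4 and 5 against 348, 624 and 453 CPM. In Prokr2Cre replicate 2 it was the other way round, at 993 CPM against 755 CPM, while in Prokr2Cre replicate 1, which was not in the fit, it stood at 214 CPM against 533 CPM.

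**Figure D2:**
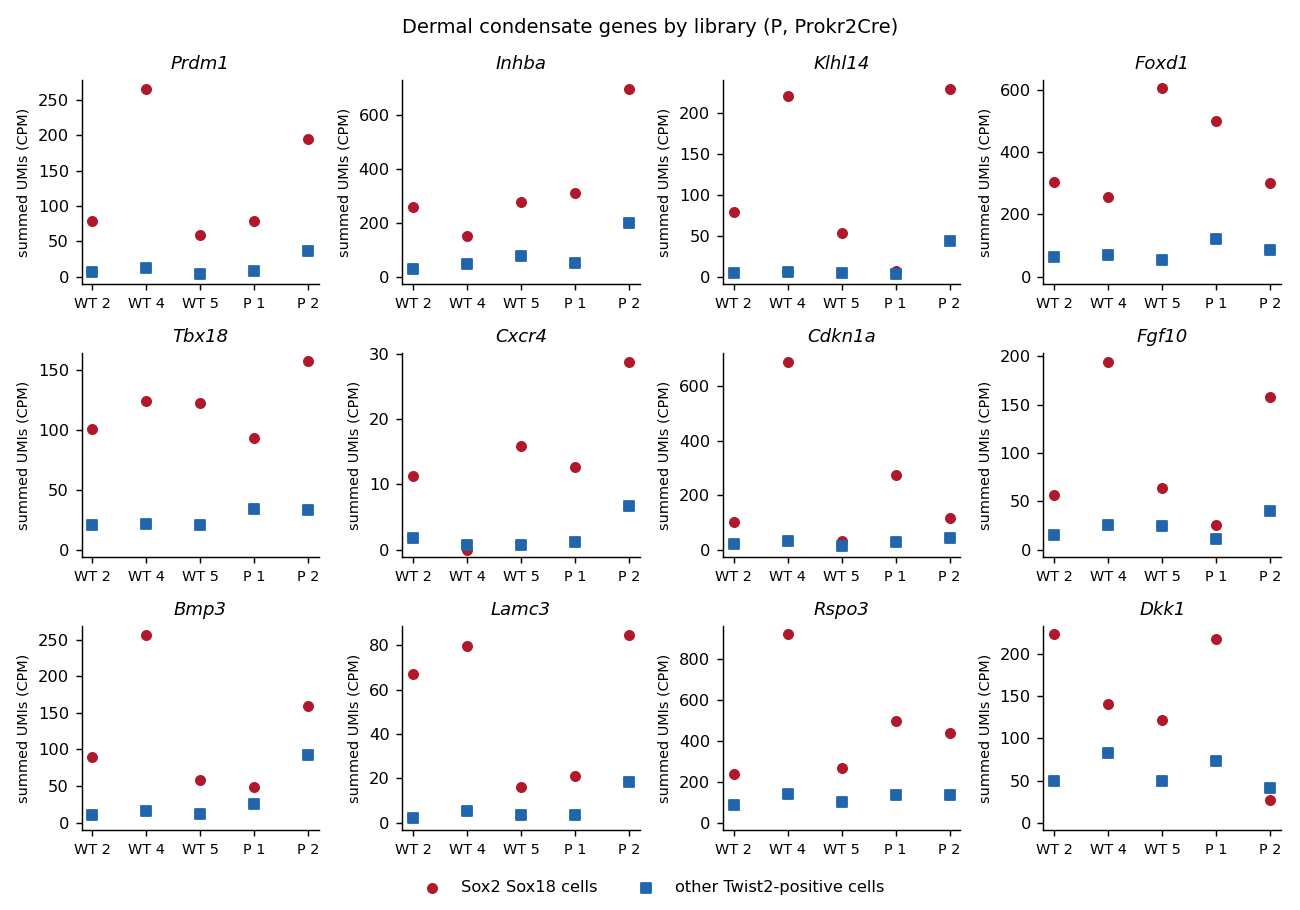
Level of 12 genes of the dermal condensate list by library, in CPM of the summed UMIs, for the Sox2 Sox18 cells (circles) and the other Twist2-positive cells (squares), with P for Prokr2Cre. Each panel has its own linear axis from about 0, and Dkk1 of P 2 and Cxcr4 of WT 4 are the panels' cases in which the circle lies below the square.

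Single cells showed the list together. After each cell had been thinned to 2000 UMIs, the Sox2 Sox18 cells of WT replicates 2, 4 and 5 and Prokr2Cre replicates 1 and 2 held a median of 7, 7.5, 7, 6 and 9 of the 28 list genes left when Sox2 and Sox18 are taken out. The other Twist2-positive cells held 3, 4, 3, 3 and 5. All 123 cells of Prokr2Cre replicate 2 held at least 4, as did 70.1% of its other Twist2-positive cells and 62.7% of its other mesenchyme. The cells of that library with Sox2 but no Sox18 held a median of 8, and those with Sox18 but no Sox2 a median of 4, against 5 in the other Twist2-positive cells. In WT replicates 2, 4 and 5 and Prokr2Cre replicate 1 it was the other way round, with medians of 3, 3, 3 and 2 in the cells with Sox2 but no Sox18 and 4, 5, 4 and 4 in those with Sox18 but no Sox2.

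Among the genes named by the rule, the largest rises over the other Twist2-positive cells were those of the NOTCH genes Hes5 and Dll1. In NOTCH signalling a ligand on 1 cell, such as Dll1, opens a receptor on its neighbour, whose fragment joins the protein RBPJ on DNA and switches on genes of the Hes and Hey families. Hes5 stood at 56.1, 17.7, 63.7 and 21.9 CPM in WT replicates 2, 4 and 5 and Prokr2Cre replicate 2 (39.8 ± 23.4, SD, n = 4 libraries), from 5, 2, 12 and 32 UMIs. Its comparison cells held 0.495, 0.589, 0.0808 and 3.09 CPM (1.06 ± 1.37), and the change was 5.62 (SE 0.84, adjusted p = 9.1e-05). Dll1 stood at 33.6, 35.4, 26.5 and 62.9 CPM against 0.165, 0.0842, 0.727 and 7.07 CPM, a change of 4.63 (SE 0.70, adjusted p = 0.00011). The groups did not overlap for either gene, which held for 8.7% of all genes tested.

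The promoters of these leading genes are shown because both belong to the NOTCH pathway and SOX factors chose the cells. They are the 250 bases before the transcription start in RefSeq (GRCm38.p6), read 5′ to 3′ on the gene's strand. Hes5 is on the plus strand at chr4:154960673-154960922, and Dll1 on the minus strand at chr17:15376933-15377182. Capitals mark a core SOX motif, ACAATG or its reverse complement CATTGT, and an RBPJ motif, GTGGGAA or TTCCCAC. The Dll1 window is 1 of 2 in the table, chosen because it holds the SOX letters.
Hes5: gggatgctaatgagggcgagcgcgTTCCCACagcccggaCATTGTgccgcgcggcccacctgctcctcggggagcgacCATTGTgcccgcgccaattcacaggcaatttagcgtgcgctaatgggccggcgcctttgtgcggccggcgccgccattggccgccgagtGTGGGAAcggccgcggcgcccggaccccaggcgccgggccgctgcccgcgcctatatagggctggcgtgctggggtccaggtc
Dll1: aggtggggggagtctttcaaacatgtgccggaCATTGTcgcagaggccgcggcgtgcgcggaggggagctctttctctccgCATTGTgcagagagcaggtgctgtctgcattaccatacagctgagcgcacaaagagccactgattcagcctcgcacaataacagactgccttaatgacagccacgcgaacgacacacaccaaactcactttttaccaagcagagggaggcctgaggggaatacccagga

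Hes5 held 2 matches of each motif, and this Dll1 window 2 of the SOX motif and 0 of RBPJ. Of 32851 windows of this length, 10.7% held the SOX letters, 5.42% the RBPJ letters and 0.524% both. The windows of Notch1 held neither, that of Jag1 the SOX letters and that of Lfng the RBPJ letters. The 2 motifs share no letters in these windows, and a match is a string of letters, not a measured binding site.

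Of 11 NOTCH genes tested, 4 were higher and 0 lower, against 2.68% and 4.63% of all genes. Their median change was 1.17 beside -0.05 over all genes. The receptor gene Notch1 stood at 67.3, 61.9, 122 and 52.7 CPM against 8.01, 11.8, 10.4 and 19.0 CPM (2.46, SE 0.36, adjusted p = 7.3e-05), and the target gene Hey1 rose by 1.95. The receptor gene Notch3 (0.75, adjusted p = 0.21) and the target gene Hes1 (-0.09, adjusted p = 0.98) were not called. Jag1, another ligand, missed the threshold over all 4 libraries (1.17, adjusted p = 0.089) and was called without WT replicate 4 (1.42, adjusted p = 0.036) or WT replicate 5 (1.36, adjusted p = 0.033). In Prokr2Cre replicate 1 Hes5, Dll1 and Notch1 stood at 16.9, 50.8 and 38.1 CPM against 0.402, 0.402 and 12.9 CPM.

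SHH is made by the epithelium of the follicle, and its arrival in a cell is commonly read from targets of its own pathway. Of 13 SHH genes tested, 4 were higher and 4 lower, against 2.68% and 4.63% of all genes. Among the higher ones were the target and feedback genes Ptch1, Hhip and Gli1. Ptch1, the SHH receptor gene that SHH itself induces, stood at 572, 761, 611 and 935 CPM against 69.6, 134, 136 and 263 CPM (2.28, SE 0.18, adjusted p = 5.2e-08). The decoy receptor gene Hhip rose by 2.02. Gli1 rose by 1.45 (adjusted p = 0.0093), with 0 UMIs in the 16 cells of WT replicate 2, and missed the threshold over the WT libraries alone (1.42, adjusted p = 0.16) and with DESeq2 (0.062). The lower ones were the co-receptor genes Cdon, Gas1 and Boc and the factor gene Gli3. Cdon stood at 33.6, 8.85, 10.6 and 6.84 CPM against 116, 151, 152 and 70.2 CPM (-3.32, SE 0.34, adjusted p = 8.6e-07), and Gas1 fell by 2.36 on the log2 scale. Boc and Gli3 missed the threshold without WT replicate 4 (adjusted p = 0.055 and 0.096), and Gli3 without WT replicate 5 (0.065). The signal transducer gene Smo stood at 75.2 ± 38.5 CPM against 75.7 ± 10.2 CPM (SD, n = 4 libraries). Shh itself had 0 UMIs in both classes of these libraries.

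WNT genes were split as well, with 6 higher and 9 lower of 36 tested, against 2.68% and 4.63% of all genes. Their median was 0.00 beside -0.05 over all genes. Beside Rspo3 and Lef1, the genes Notum (2.32) and Lgr4 (1.10) were higher, the first a secreted inhibitor and the second a receptor for R-spondins, together with the DNA-binding factor genes Tcf7l2 (0.83) and Tcf7l1 (0.70). Tcf7l1 missed the threshold without WT replicate 2 (adjusted p = 0.12), WT replicate 4 (0.29) or Prokr2Cre replicate 2 (0.12). Notum did so without WT replicate 4 (0.095), WT replicate 5 (0.057) or Prokr2Cre replicate 2 (0.080), and Lgr4 without Prokr2Cre replicate 2 (0.23). Lgr5 and Rspo2 were nearly absent. Lgr5, a further R-spondin receptor gene, had 1 UMI in the Sox2 Sox18 cells of these 4 libraries against 49.5, 77.9, 107 and 36.2 CPM in the comparison cells (-6.37, SE 0.64, adjusted p = 8.6e-07). Rspo2, its ligand, had 2 UMIs against 15.9 to 24.4 CPM. Wnt4 had 0 UMIs in the 4 libraries, at least 9.52-fold lower by a floor of 3 counts over all their cells, and missed the threshold without Prokr2Cre replicate 2 (adjusted p = 0.14). Prokr2Cre replicate 1 held 3 Wnt4 UMIs, at 6.35 CPM against 13.5 CPM. The inhibitor genes Sostdc1 (-2.09), Dkk2 (-1.85), Sfrp1 (-1.72), Sfrp2 (-1.67) and Dkk3 (-1.57) were lower, and so was the target gene Sp5 (-4.20). Dkk3 and Sp5 missed the threshold without Prokr2Cre replicate 2 (adjusted p = 0.20 and 0.050). Axin2, a WNT target in most tissues, was not called (-0.23, adjusted p = 0.85).

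Of 35 BMP, activin and TGF-beta genes tested, 4 were higher and 6 lower, against 2.68% and 4.63% of all genes. The higher ones were Bmp3, Nog, Inhba and the activin antagonist gene Fst, the last by 1.67. Bmp2 (-2.71), Tgfb2 (-2.13), Bambi (-1.82), Bmp6 (-1.77) and Gdf10 (-1.63) were among the lower ones, with Fstl1 (-0.53). Without Prokr2Cre replicate 2 the counts were 8 higher and 2 lower, and of these 6 only Tgfb2 passed. With DESeq2 1 gene was lower, and Bambi, Fstl1, Bmp2, Bmp6 and Gdf10 missed the threshold (adjusted p = 0.063, 0.10, 0.19, 0.20 and 0.24). With Twist2-positive Sox2 Sox18 cells only, or with comparison cells of matched depth, 3 were lower. Without the library as a block 2 were higher, and Inhba (adjusted p = 0.054) and Bmp3 (0.099) missed the threshold. Gdf10 and Fstl1 also missed the threshold without WT replicate 4 (adjusted p = 0.11 and 0.27), Gdf10 without WT replicate 5 (0.12) and Fstl1 without WT replicate 2 (0.29). Of 19 FGF genes tested, 3 were higher and 0 lower, against 2.68% and 4.63% of all genes. These 3 were Fgf10, the receptor gene Fgfr1 (1.03) and the feedback inhibitor gene Spred1 (1.20). Without WT replicate 5, Flrt2 (-1.56, adjusted p = 0.00075) and the feedback inhibitor gene Spry4 (-2.38, adjusted p = 0.047) were lower. Dusp6 and Etv4, commonly read as FGF targets, were not called (-0.56 and -2.04, adjusted p = 0.63 and 0.37).

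**Figure D3:**
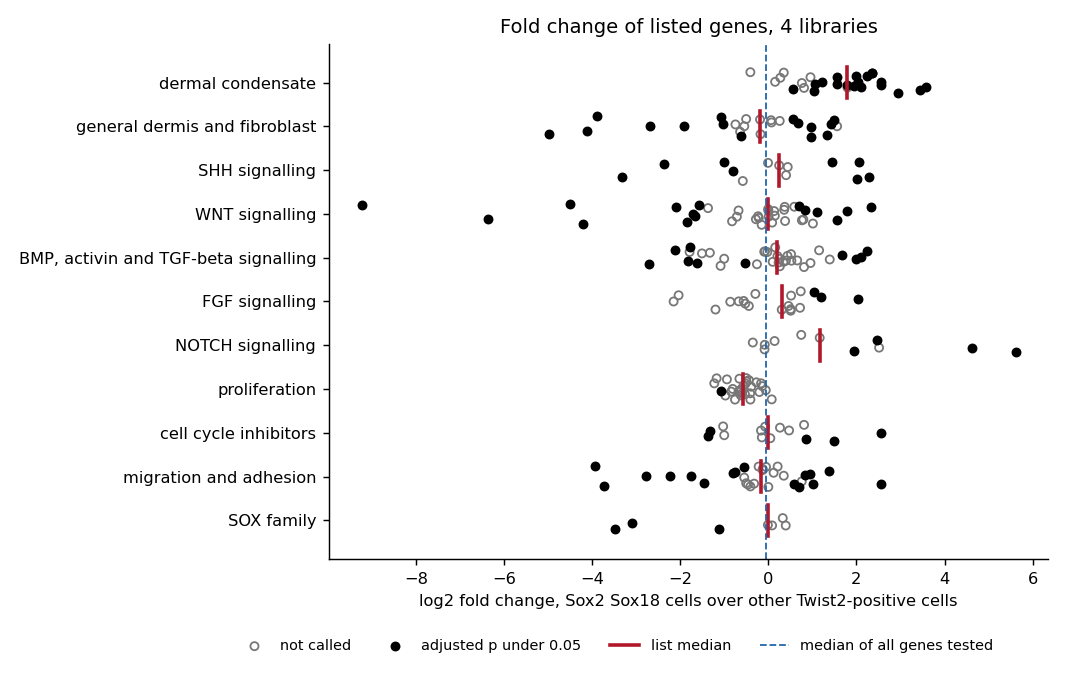
Log2 fold change of each tested gene in 11 gene lists, Sox2 Sox18 cells over other Twist2-positive cells, over WT replicates 2, 4 and 5 and Prokr2Cre replicate 2. Filled points passed an adjusted p of 0.05, red bars are list medians, and the dashed line is the median of all genes at -0.05. The condensate list lies furthest to the right with a median of 1.79, and the point furthest left is Wnt4, whose fitted value depends on the prior count because it had 0 UMIs in the Sox2 Sox18 cells.

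Genes of the general fibroblast and dermis programme were called in both directions. Of 25 tested, 7 were higher and 8 lower, against 7.32% of all genes called in either direction, and their median was -0.19. The small proteoglycan genes fell most: Lum stood at 11.2, 8.85, 15.9 and 6.15 CPM against 412, 205, 394 and 210 CPM (-4.98, SE 0.29, adjusted p = 1.1e-09), and Dcn fell by 4.11 on the log2 scale. Lox, whose enzyme cross-links collagen, stood at 0, 0, 10.6 and 3.42 CPM against 107, 84.0, 99.3 and 42.0 CPM. The fibronectin gene Fn1 fell by 1.90 on the log2 scale, Col1a2 by 1.07 and Twist1 by 1.02. Collagen VI and XIV genes were higher instead. Col6a3 stood at 370, 469, 382 and 484 CPM against 124, 150, 139 and 201 CPM (1.41, SE 0.17, adjusted p = 6.0e-06), and Col14a1 rose by 1.50. Without the library as a block only 2 of the 7 higher genes passed, and Col14a1 had an adjusted p of 0.091. With Twist2-positive Sox2 Sox18 cells only, 3 genes of the list were higher.

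Among the 15 genes with the largest rise by a fixed rule, Hes5 and Dll1 came first, and Klhl14 and Prdm1 are described above. Col19a1, a fibril-associated collagen, stood at 292, 495, 69.0 and 138 CPM against 3.05, 8.25, 8.81 and 21.6 CPM (4.41, SE 0.47, adjusted p = 1.7e-06). In the Sox2 Sox18 cells of Prokr2Cre replicate 1, which was not in the fit, Col19a1 reached only 8.47 CPM, against 0.268 CPM in the comparison cells. Pdlim3, an actin-associated protein of muscle, stood at 258, 44.2, 324 and 181 CPM against 6.03, 3.28, 6.55 and 32.7 CPM (4.25). Mgll, an enzyme that breaks down monoglycerides, was the most even of the 15, at 95.1 ± 13.6 CPM against 10.2 ± 5.47 CPM (SD, n = 4 libraries) with a change of 3.13. Efcc1 (3.46), N4bp3 (3.43), Atp8b1 (3.38), Lrrn2 (3.24), Rarres1 (3.23), Asic2 (3.21) and 4930426D05Rik (3.40) were also among them. The last overlaps Klhl14 on the opposite strand, and whether reads of the pair were told apart was not tested. Lrrn2 missed the threshold without WT replicate 5 (adjusted p = 0.090), and Asic2 with Twist2-positive Sox2 Sox18 cells only (1.70, adjusted p = 0.057).

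The 10 genes with the largest fall by the same rule were nearly or wholly absent. Pax9, a transcription factor gene of craniofacial mesenchyme, had 0 UMIs in all 5 libraries against 17.6, 25.6, 57.5 and 25.2 CPM in the comparison cells of the fit, at least 17.4-fold lower by the floor of 3 counts over all cells. Irx1, another such factor gene, had 0 UMIs in the 4 libraries of the fit and 1 in Prokr2Cre replicate 1, at least 15-fold lower. Lrriq1 (at least 18.8-fold), the matrix gene Thbs2 (14.5-fold), Prdm6 (13.2-fold), Veph1 (10.0-fold) and Ccbe1 (8.58-fold) were likewise at 0 in the fit. With DESeq2, Lrriq1 missed the threshold (adjusted p = 0.058). Ogn, the small proteoglycan osteoglycin, had 1 UMI there against 121 to 254 CPM (-7.93), and Acta2, smooth muscle actin, 3 UMIs against 47.8 to 269 CPM (-7.14). Bnc2, a zinc finger gene of the dermis, fell by 6.84.

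Against all other mesenchyme the 5 largest rises were Col19a1 (5.10), Dll1 (5.08), Klhl14 (4.81), Hes5 (4.80) and 4930426D05Rik (4.43). Hes5 missed the threshold there without the library as a block (4.08, adjusted p = 0.067). The 5 largest falls were Lrriq1, Pax9, Thbs2, Mecom and Gpm6a, all at 0 UMIs in the Sox2 Sox18 cells and at least 30.1-fold, 28.9-fold, 22.4-fold, 19.3-fold and 14.6-fold lower. NOTCH genes were higher in 6 of 12 tested, against 3.14% of all genes there, with Jag1 (1.26) and Lfng (2.20) added to those above. Jag1 missed the threshold there without WT replicate 2 (adjusted p = 0.27) or Prokr2Cre replicate 2 (0.45), and Lfng without any 1 of the 4 libraries (0.15 to 0.28). Sox9, Sox5 and Sox6, factor genes of cartilage, were lower in both comparisons, at -1.11, -3.1 and -3.48 against the Twist2-positive cells and -2.11, -4.32 and -5.3 against mesenchyme. In the first of these Sox9 missed the threshold without WT replicate 4 (adjusted p = 0.10) or Prokr2Cre replicate 2 (0.13), and Sox5 with DESeq2 (0.18) or without the library as a block (0.13).

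Guidance and adhesion genes changed in both directions, with 7 of 30 higher and 9 lower, against 2.68% and 4.63% of all genes. Nrp2, a semaphorin and VEGF co-receptor gene, rose by 1.38 (adjusted p = 2.2e-05), and Nrp1, its relative, fell by 1.46. Cxcl12 fell most after Ackr3 (-3.93), a scavenger receptor for the same chemokine: it stood at 11.2, 0, 0 and 10.9 CPM against 139, 137, 179 and 87.5 CPM (-3.72, SE 0.39, adjusted p = 1.5e-06). Tnc, the matrix gene tenascin C, fell by 2.78. Without WT replicate 2 only 1 of the 7 higher genes passed.

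Proliferation genes were mostly lower without passing the test. Of 30, 29 had a negative change and the median was -0.58 beside -0.05 over all genes. Only Mcm6, of the DNA replication helicase, was called (-1.08, SE 0.27, adjusted p = 0.015). That is 1 of 30, beside 4.63% of all genes called lower. Mki67 stood at 11.2, 115, 143 and 84.8 CPM against 90.9, 210, 65.1 and 139 CPM (-0.44, adjusted p = 0.62), with WT replicate 5 opposite to the other 3. Without WT replicate 5, 13 of the 30 were lower, Mki67 among them (-0.99, adjusted p = 0.011). Without WT replicate 4 none was called. Mcm6 then had an adjusted p of 0.052, and of 0.069 without Prokr2Cre replicate 2. Against mesenchyme cells of matched depth, 3 of the 30 were higher instead, Top2a among them (0.88, adjusted p = 0.031). After thinning, cells with at least 2 UMIs of these genes made up 25%, 31.3%, 46.7%, 46.7% and 17.9% of the Sox2 Sox18 cells in WT replicates 2, 4 and 5 and Prokr2Cre replicates 1 and 2. In the Twist2-positive cells they made up 50.2%, 52.1%, 39.6%, 60.3% and 38.4%. Only in Prokr2Cre replicate 2 did the 2 intervals not overlap, at 11.6 to 25.8 against 30.9 to 46.3. The unthinned sums of the 30 genes were 1043, 1813, 3080, 3590 and 1323 CPM against 2868, 3160, 1933, 3707 and 2106 CPM. Of 14 genes that restrain the cell cycle, Cdkn1a (2.56), Rb1 (1.48) and Btg1 (0.85) were higher, and Cdkn1c (-1.36) and Plagl1 (-1.32) were lower. Of all genes tested, 2.68% were higher and 4.63% lower. Btg2 of this list was not called, but was called lower over the WT libraries alone (-1.97, adjusted p = 2.7e-05). Btg1 missed the threshold without Prokr2Cre replicate 2 (adjusted p = 0.12) and Plagl1 without WT replicate 4 (0.055).

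**Figure D4:**
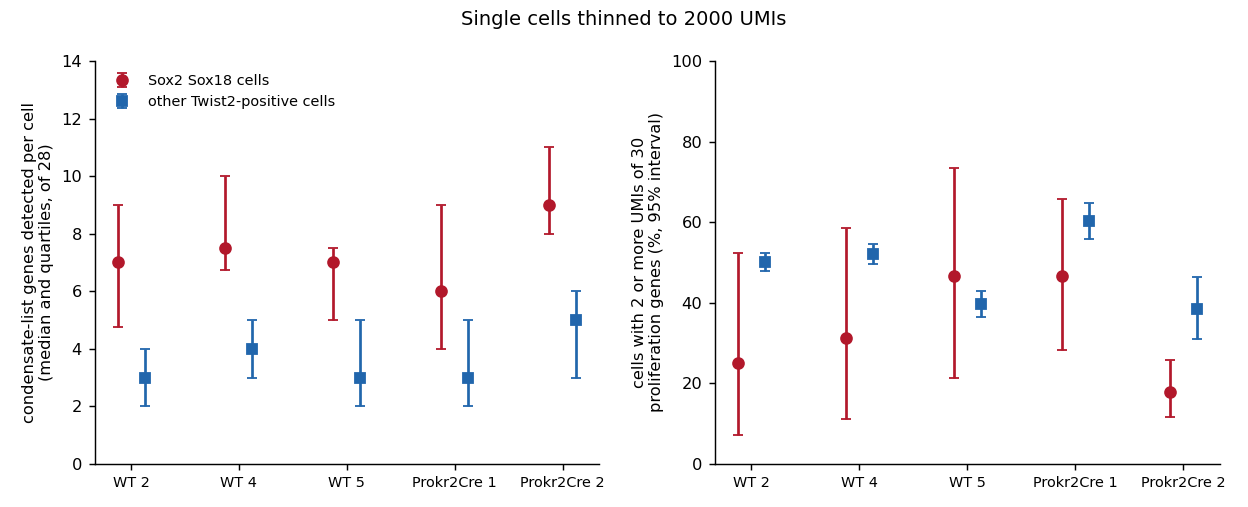
Single cells thinned to 2000 UMIs in 5 libraries, Sox2 Sox18 cells (circles) and other Twist2-positive cells (squares). Left, genes of the condensate list detected per cell, of 28, as median and quartiles, higher in the circles of every library. Right, percent of cells with 2 or more UMIs of 30 proliferation genes with exact 95% binomial intervals, where the circle of WT 5 lies above its square and the others below.

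Prokr2, the receptor gene for prokineticins and the driver of Cre in 1 nose, was seen in few cells. In the Sox2 Sox18 cells it stood at 22.4, 53.1 and 0 CPM in WT replicates 2, 4 and 5, from 2, 6 and 0 UMIs, and the comparison cells held 0.330, 2.52 and 0 CPM. In Prokr2Cre replicate 1 it stood at 14.8 CPM from 7 UMIs (exact 95% Poisson interval 5.96 to 30.5) against 0.134 CPM (0.00339 to 0.746). In Prokr2Cre replicate 2 it stood at 13.7 CPM from 20 UMIs (8.35 to 21.1) against 8.84 CPM, also from 20 UMIs (5.40 to 13.6), so that the intervals overlapped there. In that library 17 of 123 Sox2 Sox18 cells (13.8%, 8.26 to 21.2) and 7 of 164 other Twist2-positive cells (4.27%, 1.73 to 8.60) held a Prokr2 UMI, at median depths of 11517 and 12624 UMIs. Thinned to 2000 UMIs, the shares were 4.88% and 0.610%.

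Prokr2 was far higher in other cells of that library. Its 284 Epcam-positive cells, with at least 1 Epcam UMI, stood at 238 CPM. Such cells stood at 0.234 to 12.5 CPM in the WT libraries and 4.81 CPM in Prokr2Cre replicate 1. All other mesenchyme of Prokr2Cre replicate 2 stood at 8.73 CPM. Which cell types held Epcam was not tested. In the clusters of that library described below, Prokr2 led cluster 11 (37 cells) and the keratin gene Krt14 led cluster 12 (34 cells). In the fit over 4 libraries Prokr2 changed by 2.34 (SE 0.87, adjusted p = 0.14) against the Twist2-positive cells and by 2.44 (adjusted p = 0.033) against mesenchyme. The second missed the threshold without WT replicate 2 (0.15) or WT replicate 4 (0.61). The first was called over the WT libraries alone (4.54, adjusted p = 0.0021) and with DESeq2 (3.81, adjusted p = 0.0051). The 6 UMIs of WT replicate 4 came from 2 cells, and none of its 9 cells with Twist2 held any. The part of free RNA in these values was not tested.

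**Figure D5:**
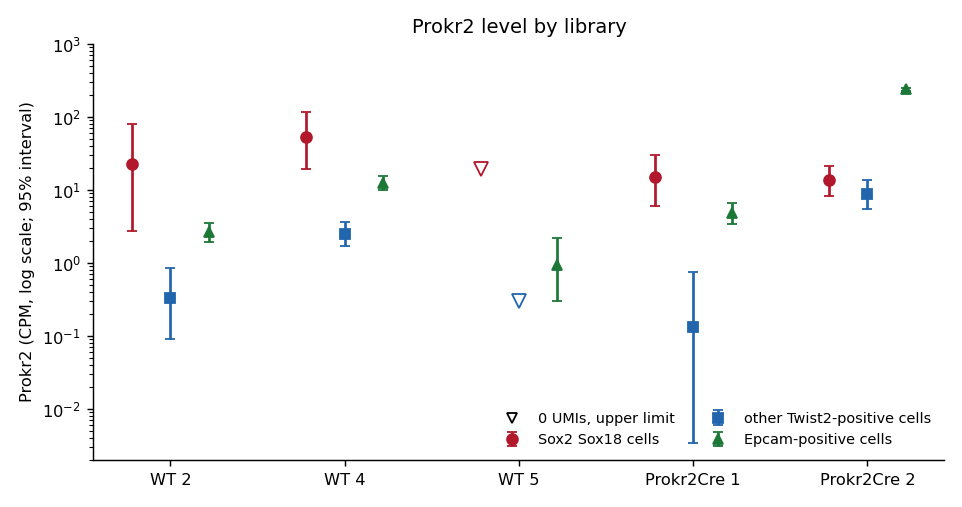
Prokr2 level in 3 cell classes of 5 libraries, in CPM on a log scale, with exact 95% Poisson intervals. Open triangles are upper limits for classes with 0 UMIs. The Sox2 Sox18 cells of Prokr2Cre 2, at 13.7, overlap with its other Twist2-positive cells, and its Epcam-positive cells lie highest at 238.

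Markers of other cell types differed by type in the Sox2 Sox18 cells. Of 12 endothelial markers the summed level ran from 15.9 to 61.9 CPM over the 5 libraries, against 22.8 to 36.2 CPM in the Twist2-positive cells. It was the higher of the classes in every library but WT replicate 5, with Sox17, Tie1 and Esam at 0 throughout. Sox10, which defines glia and neural crest, and Atoh1 and Krt20 of Merkel cells were at 0 in all 5. The 6 Merkel and melanocyte markers together gave 0, 26.5, 37.2, 0 and 8.21 CPM in the 5 libraries. The Twist2-positive cells held 24.9, 12.2, 20.6, 2.54 and 12.4 CPM. The Sox2 Sox18 cells were thus higher in WT replicates 4 and 5, from 3 and 7 UMIs, and lower elsewhere. The 9 epithelial markers gave 0 to 4 UMIs per library, and the 6 macrophage markers 0 to 2. The 7 bone markers gave 112, 177, 250, 142 and 464 CPM in the 5 libraries, against 286, 164, 350, 115 and 549 CPM in the Twist2-positive cells, so they were higher in WT replicate 4 and Prokr2Cre replicate 1 and lower in the others. The 7 pericyte and smooth muscle markers gave 17.7 to 91.6 CPM against 35.2 to 354 CPM. The 6 erythroid markers gave 4.79 to 124 CPM against 3.53 to 3207 CPM, and the 8 glial markers 0 to 89.7 CPM against 13.2 to 48.3 CPM. The 6 cartilage markers gave 628 CPM in WT replicate 2, against 451 CPM in its Twist2-positive cells, and 44.2 to 84.7 CPM elsewhere, and that library also held 10 of the 12 Sox5 UMIs. The part of cartilage RNA in the values of WT replicate 2 was not tested.

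Neuronal markers stood at 852, 354, 711, 837 and 1364 CPM over 8 genes against 327, 363, 300, 619 and 530 CPM. Stmn2, which codes for a tubulin-binding protein of growing axons, held most of this, at 606, 186, 531, 566 and 1268 CPM against 148, 121, 111, 315 and 325 CPM. It was named after its values had been seen, and its change over 4 libraries was 1.75 (SE 0.21, adjusted p = 9.3e-06). Gap43, another gene of growing axons, was not called (-0.16, adjusted p = 0.88), and Dcx had 0 UMIs in all 200 cells.

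Within Prokr2Cre replicate 2 the cells were clustered without the genes of the rule, Twist2, Prdm1, Inhba and Klhl14, with other genes of the list left in. Of its 123 Sox2 Sox18 cells 72 lay in cluster 1 (of 130 cells), 43 in cluster 5 (of 78) and 8 in cluster 6 (of 61 cells, led by Dct, Pmel and Mki67). The remaining clusters held 0. Cluster 1 held 40 and cluster 5 held 18 of the 70 cells with Sox2 but no Sox18. The Sox2 Sox18 cells of the first 2 clusters are described with no test, as the clusters were made from their own UMIs. Prdm1 stood at 269 CPM in cluster 1 and 80.3 in cluster 5, a ratio of 3.35 (2.37 to 4.86, counting error only). Inhba stood at 914 and 450, Klhl14 at 301 and 142 and Sox2 at 634 and 380. Dll1 stood at 83.0 and 38.0 CPM. The ratio of Sox18 was 1.11 (0.890 to 1.40), at 284 and 256 CPM. Sst, the somatostatin gene, stood at 160 and 12.7 CPM, and Ndnf, a secreted protein named for neurons, at 331 and 93.0.

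Cluster 5 was higher in Foxd1 (397 against 233 CPM), Pdlim3 (247 against 136) and Twist2 (144 against 77.0). Dkk1 had 36 UMIs in its 43 cells (76.1 CPM) and 0 in the 72 of cluster 1, which allows up to 4.37 CPM. Mki67 was at 7 and 0 UMIs. Prokr2 stood at 14.8 and 14.2 CPM. Malat1, a nuclear RNA, stood at 35531 CPM in cluster 5 and 57879 in cluster 1. The 10 genes highest in cluster 1 relative to cluster 5, Grik1 and Galnt13 among them, gave 8.47 CPM in the Sox2 Sox18 cells of Prokr2Cre replicate 1, 281 to 617 CPM in those of the WT replicates and 1383 in Prokr2Cre replicate 2. The other Twist2-positive cells were also lowest in Prokr2Cre replicate 1, at 19.3 CPM, and highest in Prokr2Cre replicate 2, at 818 CPM, with 235 to 411 CPM in the WT replicates. The part of nuclear RNA in the difference between the clusters was not tested.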

How the data were processed

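The deposited matrices hold raw UMI counts, which the authors had not normalized. Counting was done with Cell Ranger 6.0.1 (WT replicate 1), 7.0.0 (WT replicates 2 to 5) and 6.1.2 (Prokr2Cre), per the file headers, while the submitters' processing notes name Cell Ranger 4, Seurat 4.3.0 and mm10. The 29760 genes common to all libraries with a unique symbol were used. Between 98.5% and 99.3% of a library's UMIs fell in them. Barcodes under 500 genes or over 10% mitochondrial UMIs were dropped.

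Mesenchyme was taken as cells with Col1a1 or Col3a1, and Pdgfra, Prrx1 or Twist1, and 0 UMIs of the 4 excluded genes. Groups came from the sample titles. UMIs were summed per library and class, and libraries with at least 5 cells in both classes entered edgeR 4.0.16 (R 4.3.3; TMM, filterByExpr, quasi-likelihood test, library as block, Benjamini-Hochberg adjustment, threshold 0.05). The library pairs the classes, since both come from 1 capture. Genes that chose either class of a comparison were not tested in it. Prokr2Cre replicate 1 was kept for alternatives, as it shares its nose with replicate 2. On simulated counts for the comparison with Twist2-positive cells (10539 genes), 32.3% of genes changed by a log2 fold change of 1 and 85.4% of those changed by 2 were recovered, with 2 false calls. On those for mesenchyme (12103 genes) the shares were 25.8% and 80.6%.

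Genes named by rule had an adjusted p under 0.05, 1 direction in every library of the fit and a mean of at least 20 CPM in either class. Of these the 15 largest rises and 10 largest falls were named, and 5 each way for mesenchyme. List genes, markers and Prokr2 were added. Some genes that the rule or the lists name are not reported here. The members and lists were chosen with earlier results of these data known. Scrublet (scanpy 1.11.5) marked at most 0.416% of barcodes as doublets and was not relied on. Doublets stayed in, and removal of the top scores at 0.8% per 1000 barcodes was an alternative. It took 4 of 16, 0 of 16, 4 of 15, 0 of 30 and 2 of 123 Sox2 Sox18 cells of WT replicates 2, 4 and 5 and Prokr2Cre replicates 1 and 2, and 193 of 1945, 111 of 1677, 57 of 930, 22 of 496 and 3 of 164 other Twist2-positive cells. The part of doublets in the results was tested only by this removal. Clusters came from leidenalg 0.10.2 (2000 genes, 30 components, 20 neighbours, resolution 1). Alternatives were another tool (DESeq2 1.42.0), scaling, filters, cell rules and libraries.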

Additional observations from a re-analysis of the deposited data

Results flagged for a closer look

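Prokr2 in the other Twist2-positive cells of the WT libraries stood at 2.52 CPM in WT replicate 4, from 30 UMIs in 7 of 1677 cells, against 0, 0.330 and 0 CPM in WT replicates 1, 2 and 5, a single library far from the others. Chance picks out about 1 in 20 groups in this way.

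Sox11 was higher in the Sox2 Sox18 cells than in the other Twist2-positive cells of WT replicates 2, 4 and 5 (213, 602 and 271 CPM against 209, 396 and 265 CPM) and lower in both Prokr2Cre libraries (483 and 269 CPM against 493 and 283 CPM). Every library of 1 group thus went opposite to those of the other, which was not tested. The log2 change over the 4 libraries of the fit was 0.087 (adjusted p = 0.92).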

How the results depend on the processing

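The count of genes called against the other Twist2-positive cells, 772, ran from 611 to 923 when 1 library was left out. Over the other alternatives it ran from 529 (DESeq2) to 994 (no filter on low counts, where the median log2 change was -0.31). Against mesenchyme, 1110 genes became 667 with DESeq2 and 709 over the WT libraries alone, with a range of 709 to 1350 when 1 library was left out, and the cause was not tested. Of the fits with 1 library left out, that without WT replicate 5 gave the highest counts. Without the library as a block, which is the replicate block here, the counts were 538 and 923. All 667 DESeq2 calls against mesenchyme were among the 1110. Over the genes shown by name and the alternatives, 2873 values against the Twist2-positive cells kept their direction and side of the threshold, 208 lost the call and 93 gained it. Against mesenchyme these were 2938, 212 and 52, and Top2a reversed with comparison cells of matched depth, to 0.88. The share of Sox2 Sox18 cells depends on depth. After thinning to 2000 UMIs, which leaves fewer UMIs of both genes, it was 0.0600%, 0%, 0.200%, 0.464% and 1.99% in WT replicates 2, 4 and 5 and Prokr2Cre replicates 1 and 2. Without Sox18 in the rule it was 0.0513% in WT replicate 1 and 16.2% in Prokr2Cre replicate 2. Thinned shares of cells with Prokr2 in the latter were 4.88% and 0.610%. With 15 or 16 Sox2 Sox18 cells per WT library, a change of 1 on the log2 scale was often missed on simulated counts.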
